A study of Mus musculus with 8 samples.

Results

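The clustered protocadherins are cell surface adhesion proteins encoded by 3 neighbouring gene clusters, alpha, beta and gamma. Their 58 genes were taken from the count tables by symbol, out of 24421 genes listed: 14 in the alpha cluster, 22 in the beta cluster and 22 in the gamma cluster. RNA had been sequenced from mouse embryonic stem cells, a CAST/Ei x 129/Sv/Jae hybrid, in 4 groups of 2 biological replicates. The groups were wild type (WT) at day 0, the HNRNPK 6A mutant (6A) at day 0, WT at day 14 and 6A at day 14. HNRNPK is an RNA-binding protein that takes part in Xist RNA function. Day 0 cells had been grown with leukemia inhibitory factor on a layer of irradiated mouse embryonic fibroblasts (feeder cells), which had then been removed. Day 14 cells came from such cultures after withdrawal of that factor, growth in suspension as embryoid bodies and later plating. The labels do not say whether 6A is 1 clone or several, and gene counts do not show the mutation, so the genotype labels were not checked here. The series' design text names day 7 for the differentiated cells, whereas the titles of the samples and the growth protocol give day 14; the text follows the latter.

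Each alpha and gamma gene has its own large first exon, which carries the extracellular domains and has its own promoter, and is spliced to constant exons shared by the whole cluster. Beta genes are single-exon genes with no shared constant exons. In the nervous system each neuron uses a few alpha, beta and gamma promoters, chosen largely at random, and the proteins bind their own kind across cells, which lets neurites of one neuron recognise each other. CTCF and cohesin bring the chosen promoters to distant enhancers, and DNA methylation and SMCHD1 keep others silent. The last genes of the alpha and gamma clusters, Pcdhac1, Pcdhac2, Pcdhgc3, Pcdhgc4 and Pcdhgc5, are called C-type and are used more uniformly.

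In the mm10 build, with GENCODE M21 gene models, all 3 clusters lie on the plus strand of chromosome 18: the alpha cluster at 36930184 to 37187661, the beta cluster at 37264938 to 37524479 and the gamma cluster at 37661793 to 37841873. All 22 beta and all 22 gamma genes matched a gene model by symbol, and 12 of the 14 alpha genes did; Pcdha10 and Pcdha11 were not matched, because GENCODE M21 has 2 genes named Pcdha11. The exonic sequence that belongs to 1 member alone had a median of 2485 bases in the alpha, 3714 in the beta and 2629.5 in the gamma cluster. The models of Pcdhb21 and Pcdhb22 overlap, which leaves 4250 of 4705 and 6154 of 6609 exonic bases to 1 member alone.

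Total counts were 8146684 to 15540163 per library. The clustered protocadherins held 1513 to 7125 of them. Levels are given as CPM, the count relative to the library's total after TMM scaling; a group with 3 counts or fewer over its 2 libraries is treated as a limit, not a level. As a check of the day labels, the 6 pluripotency genes (Pou5f1, Nanog and others) summed to 3348 to 3575 CPM at day 0 and 270 to 397 CPM at day 14. Neuron markers were present at both days. At day 0 the summed CPM of 12 neuron markers was 539.0 and 514.8 in WT, against 445.7 and 443.5 in 6A. Most of it came from Stmn2 and Tubb3, while Dcx, a marker of young neurons, stood at 0 in both WT libraries. At day 14 the sum was 219.9 and 215.6 CPM in WT, against 61.9 and 61.6 CPM in 6A. These are bulk libraries, so fewer cells of a type and less RNA per cell cannot be told apart.

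In every library the gamma cluster held the most counts, then the beta and then the alpha cluster, as the plot of single members shows; sums are shares of reads and not per length. Summed over members, the gamma cluster stood at 174.7 and 175.4 CPM in WT day 0, the beta cluster at 9.38 and 7.56 CPM, and the alpha cluster at 2.59 and 3.60 CPM. The gamma cluster held 92.1% to 94.0% of all clustered protocadherin counts in the day 0 libraries and 80.0% to 83.1% in the day 14 libraries. The beta share was 4.05% to 5.49% at day 0 and 16.5% to 18.3% at day 14. The alpha share was 0.411% to 2.40%.

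**Figure D1:**
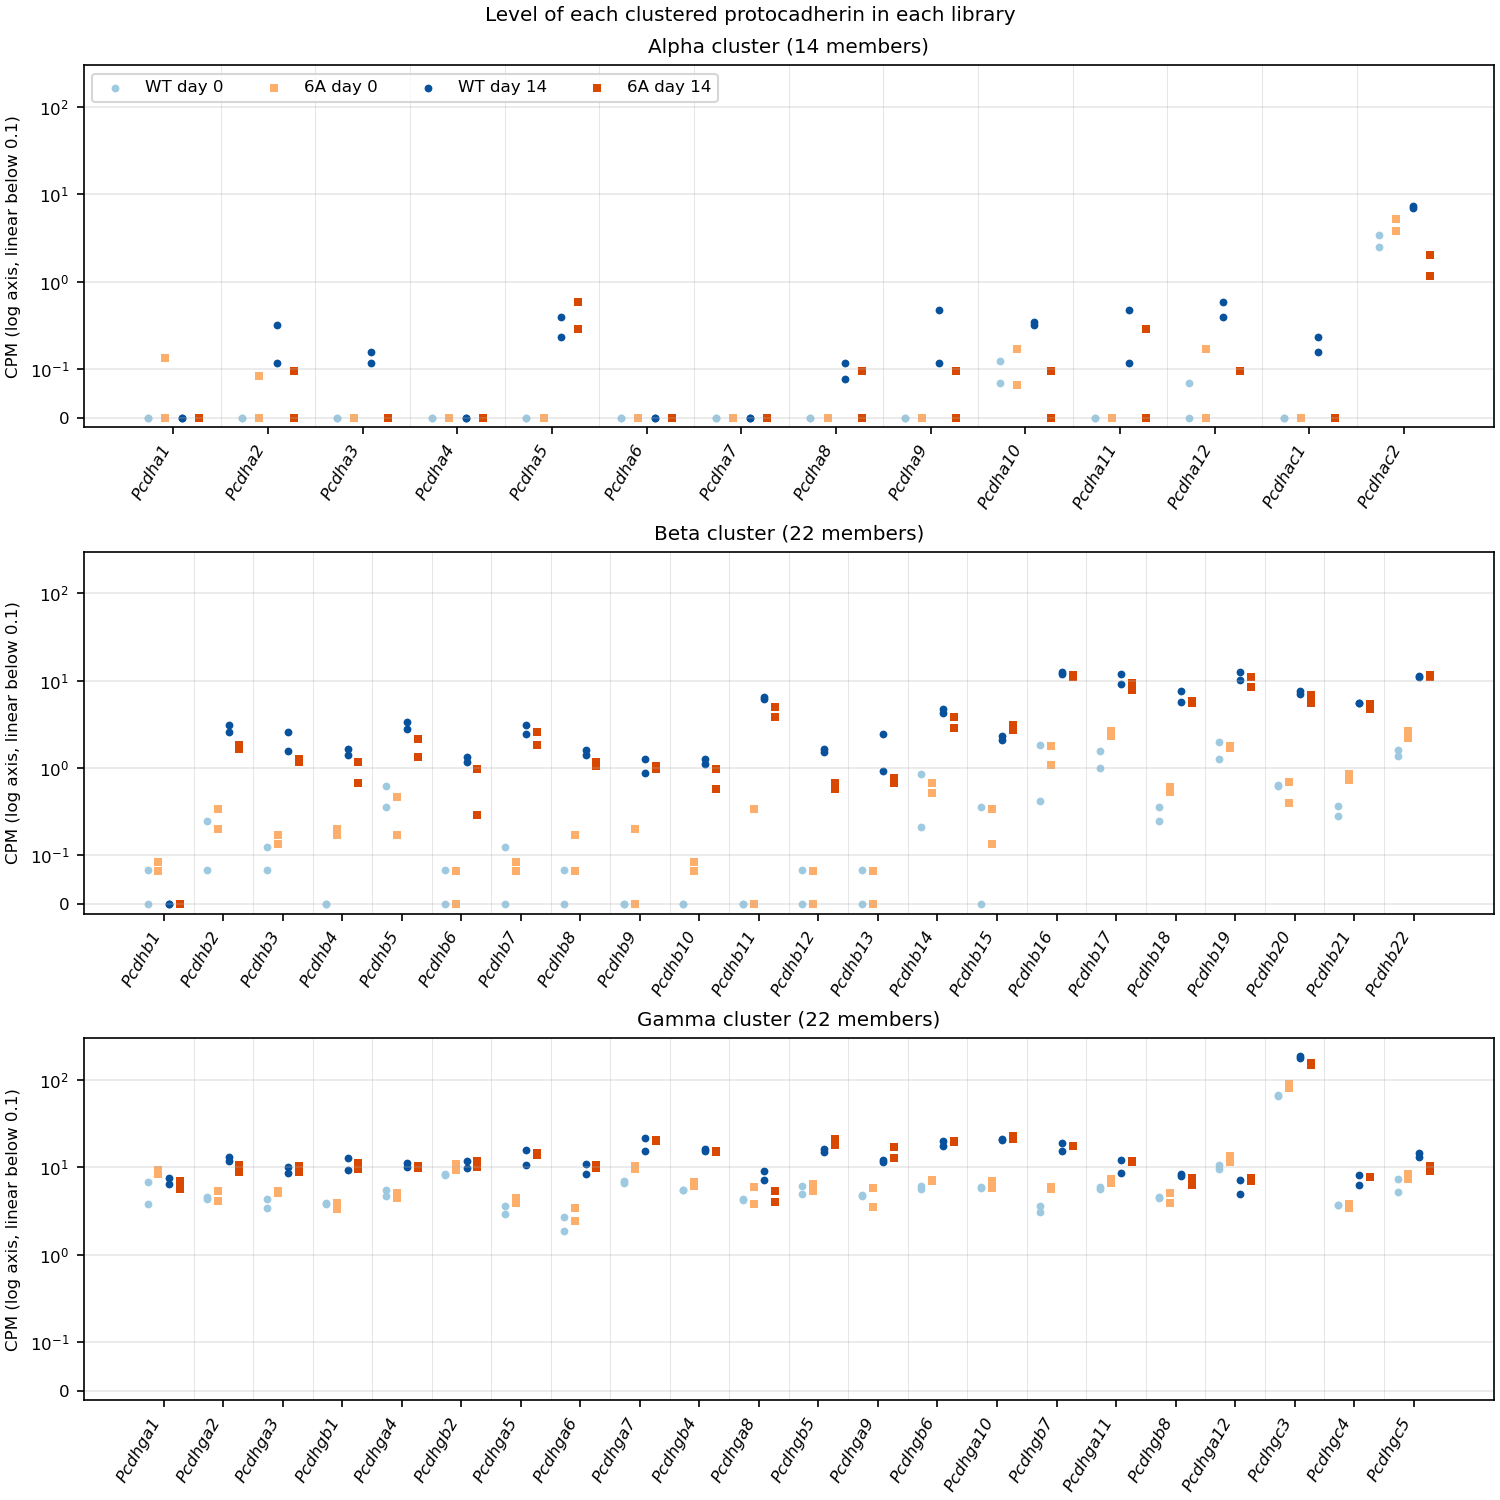
Level of each of the 58 members in each library, in CPM on a log axis that is linear below 0.1, ordered along the chromosome within the alpha, beta and gamma clusters; each point is 1 library and colour gives the group. Pcdhac2 stands above the other alpha members and Pcdhgc3 above the other gamma members, and beta members stand higher at day 14 than at day 0, apart from Pcdhb1.

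Within the alpha cluster most counts came from a single gene. Pcdhac2 (18:37143503 to 37187657), the last alpha C-type gene, held 89.8% to 96.3% of alpha counts at day 0, 77.9% and 72.9% in WT day 14, and 70% and 57.1% in 6A day 14. Its level was 2.47 and 3.46 CPM in WT day 0, 3.76 and 5.21 CPM in 6A day 0, 6.95 and 7.43 CPM in WT day 14, and 2.03 and 1.16 CPM in 6A day 14. The WT day 14 libraries were the highest and the 6A day 14 libraries the lowest, and no group overlapped another. Pcdha4, Pcdha6 and Pcdha7 were at 0 counts in all 8 libraries, where a count of 0 allows a level of up to 0.193 to 0.368 CPM, unscaled, depending on the library. The other 10 alpha genes stood at 0.580 CPM or less in every library; the highest were Pcdha12 in a WT day 14 library and Pcdha5, at 0.579 CPM, in a 6A day 14 library. Members at 0 beside 12 or more counts of Pcdhac2 in every library show that reads of the shared constant exons were not credited to every alpha gene. How such reads were assigned was not given in the sources used here.

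Beta members were low at day 0 and measurable at day 14. At day 0, 7 to 11 of the 22 had more than 3 counts in a library, and at day 14, 20 or 21 did. The exception was Pcdhb1, the first gene of the cluster, with 3 counts over the day 0 libraries and 0 in all 4 day 14 libraries. Per kilobase of their own exonic sequence, beta levels at day 14 in WT ran from 0 for Pcdhb1 to 2.32 CPM for Pcdhb16. Their median was 0.785 CPM. Gamma levels, as all counts of a gene over its own exonic sequence, had a median of 3.93 CPM. Any reads of the shared constant exons credited to gamma genes would raise that value, so the beta and gamma medians may not be on one scale. Members later in the beta cluster tended to have higher levels: Spearman's rho between order along the chromosome and CPM per kilobase was 0.60 in WT day 0, 0.60 in 6A day 0, 0.66 in WT day 14 and 0.72 in 6A day 14. Each rho is over 22 genes that share their libraries and is a description. The day 0 values also rank members with 3 counts or fewer in the group, 12 of the 22 in WT and 8 in 6A, which are limits and not levels. In the gamma cluster the same measure was between -0.15 and 0.03.

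All 22 gamma members had more than 3 counts in every library. The C-type gene Pcdhgc3 (18:37806364 to 37841873), whose protein is known to bind Axin1 and dampen Wnt signalling, took 36.4% to 43.9% of gamma counts. It stood at 67.9 and 65.2 CPM in WT day 0, 90.9 and 80.6 CPM in 6A day 0, 185.5 and 177.1 CPM in WT day 14, and 154.4 and 149.0 CPM in 6A day 14. Per kilobase of its own exonic sequence it stood at 53.6 CPM in WT day 14, against a gamma median of 3.93 CPM. Both values include any reads of the shared constant exons that were credited to a gene. The fewest gamma counts over the 8 libraries were those of the A-type gene Pcdhga8 (494 in all), at 4.32 and 4.17 CPM in WT day 0, 3.76 and 6.01 CPM in 6A day 0, 9.16 and 7.12 CPM in WT day 14, and 4.06 and 5.31 CPM in 6A day 14. The C-type gene Pcdhgc4, known for its role in the survival of neurons, was close to it (497 counts), at 3.70 and 3.67 CPM in WT day 0, 3.76 and 3.405 CPM in 6A day 0, 6.26 and 8.22 CPM in WT day 14, and 7.82 and 7.82 CPM in 6A day 14. The A-type and B-type gamma members lay between 1.85 CPM (Pcdhga6 in WT day 0) and 22.98 CPM (Pcdhga10 in 6A day 14).

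**Figure D2:**
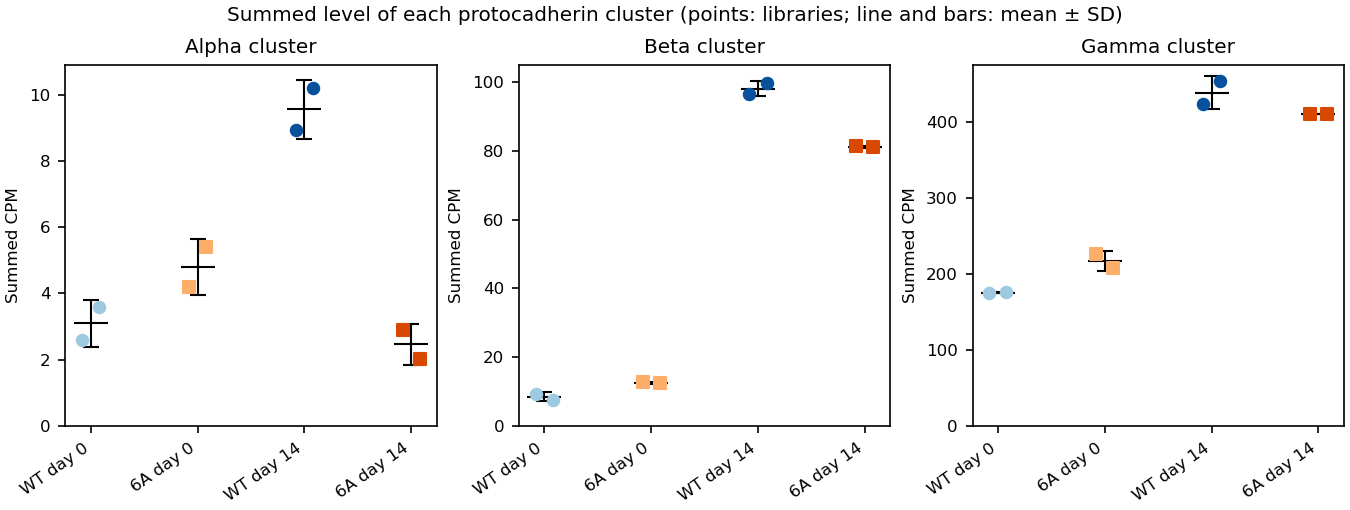
Summed CPM of the alpha (14 members), beta (22) and gamma (22) clusters in each group; points are libraries, the horizontal line is the mean and the bars are ± SD (n = 2), and each panel has its own axis from 0. The beta sum is above 81 CPM in each day 14 library and below 13 CPM in each day 0 library, and the alpha sum is highest in WT day 14 and lowest in 6A day 14.

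The filter on low counts kept 44 of the 58 members for testing: Pcdhac2 alone of the alpha cluster, 21 beta members (all but Pcdhb1) and all 22 gamma members. Tests were edgeR quasi-likelihood tests fitted on 15458 genes with Benjamini-Hochberg adjustment, called below 0.05. A member that passed the filter only through its day 14 counts would tend to be higher at day 14. The counts by day below therefore describe the members and do not set them apart from other genes.

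The first comparison asked how the clusters changed when WT cells differentiated. The alpha sum was 3.10 ± 0.714 CPM at day 0 and 9.56 ± 0.902 CPM at day 14 (SD, n = 2), a ratio of 3.09. The beta sum was 8.47 ± 1.29 and 98.2 ± 2.15 CPM, a ratio of 11.6, and the gamma sum 175.1 ± 0.471 and 438.1 ± 21.8 CPM, a ratio of 2.50. Of the tested members, 41 were called higher and 1 lower, where 75.2% of all genes tested were called, 38.4% higher and 36.8% lower. The sums are descriptions and were not tested.

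Pcdhac2 rose from day 0 to day 14 in WT by a log2 fold change of 1.24 (SE 0.28, adjusted p = 0.0013). The other 13 alpha members together went from 3 counts over the WT day 0 libraries to 52 over the WT day 14 libraries. That is a ratio of 18.1 with an exact 95% interval of 5.87 to 90.8, which covers counting error only. Pcdhac1, the other alpha C-type gene, went from 0 counts in both WT day 0 libraries to 2 in each WT day 14 library, at least 1.396-fold higher against a floor of 3 counts over the group. In 6A it was at 0 in all 4 libraries.

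All 21 tested beta members were called higher at day 14 in WT. Their fitted log2 fold changes ran from 2.76 to 9.17 with a median of 4.32, against 0.04 for all genes tested. In WT day 0, 4 of them had 0 counts and 7 had 1 to 3 counts, so those fits are neither bounds nor precise folds. With the 4 at their bounds and the 7 at their count ratios the median was 3.63, and with the 7 at the lower ends of their exact 95% intervals it was 2.96. The 10 members with more than 3 counts at both days ran from 2.76 to 4.36, with a median of 3.26. Count ratios of the 7 were 21.3 to 62.8, with interval ends of 4.66 or more, for counting error only. The bounds were at least 11.5-fold higher for Pcdhb4, 7.68-fold for Pcdhb9, 8.72-fold for Pcdhb10 and 46.8-fold for Pcdhb11. Pcdhb11 was the clearest of these, at 0 in both WT day 0 libraries and 6.49 and 6.17 CPM in the WT day 14 libraries. Pcdhb22, the last gene of the cluster, stood at 1.36 and 1.62 CPM at day 0 and 11.2 and 11.0 CPM at day 14, with no overlap (log2 fold change 2.86, SE 0.25, adjusted p = 1.4e-07). Pcdhb18 went from 0.247 and 0.353 CPM to 5.68 and 7.51 CPM (log2 fold change 4.36, SE 0.39, adjusted p = 2.0e-07). Next in order of p, Pcdhb21 went from 0.370 and 0.282 CPM to 5.56 and 5.54 CPM (log2 fold change 4.09, SE 0.39, adjusted p = 3.6e-07). Pcdhb20 went from 0.617 and 0.636 CPM to 7.53 and 7.12 CPM (log2 fold change 3.52, SE 0.34, adjusted p = 4.3e-07). None of these 4 genes had overlapping groups.

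Gamma members had smaller fitted changes than beta members. In WT, 19 of 22 were called higher at day 14 and 1 lower, with a median log2 fold change of 1.38. Pcdhgc3 had the smallest adjusted p (log2 fold change 1.45, SE 0.11, adjusted p = 5.8e-08), and all 3 gamma C-type genes were among the 19. Pcdhgc5, expressed late in the developing brain, went from 5.18 and 7.41 CPM to 13.2 and 14.6 CPM (log2 fold change 1.11, SE 0.21, adjusted p = 0.00027), and Pcdhgc4 had a log2 fold change of 0.99 (SE 0.23, adjusted p = 0.0017). The B-type gene Pcdhgb7 had the largest fitted change, from 3.58 and 3.04 CPM to 15.5 and 18.7 CPM (log2 fold change 2.40, SE 0.21, adjusted p = 1.3e-07). The A-type gene Pcdhga10 went from 5.80 and 6.00 to 20.6 and 21.0 CPM (log2 fold change 1.81, SE 0.18, adjusted p = 5.5e-07), and Pcdhgb6 from 6.17 and 5.58 to 17.7 and 19.9 CPM.

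Pcdhga12, the last A-type gene before the C-type genes, was the only tested member called lower at day 14 in WT. It stood at 10.6 and 9.46 CPM at day 0 and 4.98 and 7.12 CPM at day 14 (log2 fold change -0.70, SE 0.22, adjusted p = 0.0099). The groups did not overlap, but the call was lost without WT day 14 replicate 1 (log2 fold change -0.44, adjusted p = 0.13) and in DESeq2 (adjusted p = 0.056). Pcdhga1 and Pcdhgb2 were called in neither direction, with adjusted p of 0.22 and 0.086.

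In 6A cells the same comparison gave smaller ratios for the beta and gamma sums and a lower alpha sum at day 14. The alpha sum was 4.80 ± 0.861 CPM at day 0 and 2.46 ± 0.615 CPM at day 14, a ratio of 0.513. The beta sum was 12.5 ± 0.215 and 81.3 ± 0.294 CPM, a ratio of 6.50, and the gamma sum 216.5 ± 13.0 and 409.8 ± 0.312 CPM, a ratio of 1.89. Of the tested members, 38 were called higher and 2 lower, where 71.9% of all genes tested were called, 35.4% higher and 36.6% lower.

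Pcdhac2 fell from day 0 to day 14 in 6A, with a log2 fold change of -1.50 (SE 0.33, adjusted p = 0.0010). The other 13 alpha members held 8 counts in 6A day 0 and 18 in 6A day 14, a ratio of 2.90 (exact 95% interval 1.199 to 7.70, counting error only). The lower alpha sum thus came from Pcdhac2, and without it the sum changed in the other direction.

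The 21 tested beta members were again all called higher, with fitted log2 fold changes of 1.77 to 4.77 and a median of 3.06, against -0.03 for all genes tested. Of these, 7 had 1 to 3 counts in 6A day 0. With the 7 at their count ratios the median was 3.17, and with the 7 at the lower ends of their exact 95% intervals it was 2.45. The 14 members with more than 3 counts at both days had a median of 2.67. Count ratios of the 7 were 9.01 to 29.6, with interval ends of 2.42 or more, for counting error only. Smallest in adjusted p were Pcdhb20 (log2 fold change 3.52, SE 0.34, adjusted p = 5.3e-07), Pcdhb22 (2.20, SE 0.22, adjusted p = 7.0e-07), Pcdhb18 (3.33, SE 0.34, adjusted p = 9.0e-07) and Pcdhb19 (2.45, SE 0.27, adjusted p = 2.1e-06). Pcdhb20 stood at 0.684 and 0.401 CPM in 6A day 0 and 5.50 and 6.85 CPM in 6A day 14, and Pcdhb22 at 2.22 and 2.67 CPM and 11.7 and 11.1 CPM. Pcdhb18 stood at 0.599 and 0.534 CPM and 5.60 and 5.89 CPM, and Pcdhb19 at 1.71 and 1.80 CPM and 10.9 and 8.40 CPM. In all 4 genes both day 14 libraries were above both day 0 libraries.

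Among gamma members 17 of 22 were called higher in 6A at day 14 and 1, Pcdhga12, lower, with a median log2 fold change of 1.06. Pcdhga12 stood at 13.3 and 11.3 CPM at day 0 and 7.53 and 7.05 CPM at day 14 (log2 fold change -0.75, SE 0.21, adjusted p = 0.0047). Pcdhga10 had the smallest adjusted p, at 7.01 and 5.81 CPM at day 0 and 22.98 and 20.9 CPM at day 14 (log2 fold change 1.78, SE 0.17, adjusted p = 5.4e-07). The B-type genes Pcdhgb5, Pcdhgb6 and Pcdhgb7 followed. Pcdhgb5 went from 6.50 and 5.41 CPM to 17.96 and 20.9 CPM (log2 fold change 1.71, adjusted p = 2.2e-06). Pcdhgb6 went from 7.18 and 6.88 CPM to 19.6 and 20.1 CPM (1.497, adjusted p = 2.5e-06), and Pcdhgb7 from 5.99 and 5.61 CPM to 17.6 and 17.6 CPM (1.60, adjusted p = 3.2e-06). Pcdhgc3 rose with a log2 fold change of 0.82 (SE 0.11, adjusted p = 1.5e-05) and Pcdhgc4 with 1.13 (SE 0.23, adjusted p = 0.00051). Pcdhgc5 was not called in 6A, at 8.47 and 7.28 CPM at day 0 and 9.17 and 10.4 CPM at day 14 (log2 fold change 0.32, SE 0.21, adjusted p = 0.18).

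**Figure D3:**
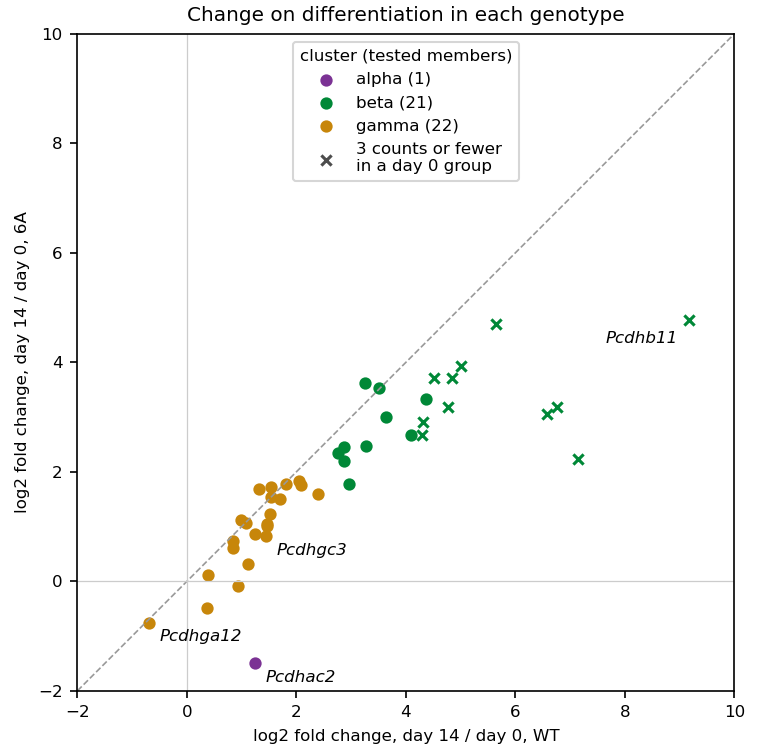
Log2 fold change of each tested member from day 0 to day 14 in WT (horizontal axis) and in 6A (vertical axis), coloured by cluster; the dashed line marks equal change, and crosses are fitted values of members with 3 counts or fewer in a day 0 group, which are not bounds. Pcdhac2 has opposite signs (1.24 in WT and -1.50 in 6A), Pcdhga12 is below 0 in both, and all 21 beta members are above 0 in both.

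The next comparison set 6A against WT at day 14. The alpha sum was 3.88-fold lower in 6A, at 8.93 and 10.2 CPM in WT, against 2.90 and 2.03 CPM in 6A. The beta sum was 96.7 and 99.7 CPM in WT, against 81.5 and 81.1 CPM in 6A, a ratio of 0.828, and the gamma sum 422.6 and 453.5 CPM and 410.0 and 409.6 CPM, a ratio of 0.935. Both 6A libraries were below both WT libraries for all 3 sums. Without Pcdhgc3 the gamma ratio was 1.01 and the libraries overlapped. Only 1 of the 44 tested members was called, where 13.6% of all genes tested were called, 5.33% higher and 8.31% lower.

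That member was Pcdhac2, with a log2 fold change of -2.17 in 6A (SE 0.32, adjusted p = 0.00048), or 4.50-fold lower. Its protein is known from serotonergic neurons, where it keeps axons apart from one another. The other 13 alpha members together were also lower, at 17 and 35 counts in WT and 9 and 9 counts in 6A. The pooled ratio was 2.81-fold lower in 6A (exact 95% interval 1.62 to 5.11, counting error only). Pcdha5 went the other way in level, at 0.232 and 0.395 CPM in WT, against 0.290 and 0.579 CPM in 6A, and the groups overlapped.

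No beta or gamma member was called in 6A against WT at day 14, although 3 of each had an unadjusted p under 0.05; DESeq2 called 1 member in all, the same one as edgeR. Beta log2 fold changes ran from -1.33 to 0.39 with a median of -0.41 against 0.00 for all genes tested, and 19 of 21 were below 0. Both 6A libraries were below both WT libraries in 14 of the 21, where this held for 28.5% of all genes tested, and in 5 of the 22 gamma members. The smallest adjusted p of a beta member was that of Pcdhb12, at 1.51 and 1.66 CPM in WT, against 0.676 and 0.579 CPM in 6A (log2 fold change -1.33, SE 0.51, adjusted p = 0.10). Pcdhb22 stood at 11.2 and 11.0 CPM in WT, against 11.7 and 11.1 CPM in 6A, and its groups overlapped.

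Fitted beta differences at day 14 tended to vary with place in the cluster, although no beta member was called. Spearman's rho between order along the chromosome and the log2 fold change was 0.65 over 21 members, given as a description since the members share their libraries and the early members have fewer counts. Split after these values were seen, and so untested, Pcdhb1 to Pcdhb13 summed to 26.0 and 27.8 CPM in WT, against 17.7 and 16.5 CPM in 6A, a ratio of 0.635. Pcdhb14 to Pcdhb22 summed to 70.7 and 71.9 CPM and 63.8 and 64.6 CPM, a ratio of 0.901. All 12 tested members of the first set had fitted values below 0, with a median of -0.72, and 7 of 9 of the second did, with a median of -0.21.

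Gamma log2 fold changes at day 14 ran from -0.78 to 0.32 with a median of 0.02, and 13 of 22 were above 0. Pcdhga8 was the lowest, at 9.16 and 7.12 CPM in WT, against 4.06 and 5.31 CPM in 6A without overlap (log2 fold change -0.78, SE 0.27, adjusted p = 0.071). It was called when only the day 14 groups were fitted (adjusted p = 0.026). Pcdhgc5 stood at 13.2 and 14.6 CPM in WT, against 9.17 and 10.4 CPM in 6A, also without overlap (log2 fold change -0.51, SE 0.20, adjusted p = 0.12). Pcdhgc3 had a log2 fold change of -0.26 (SE 0.11, adjusted p = 0.15), and Pcdhgc4 of 0.10 (SE 0.21, adjusted p = 0.83).

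**Figure D4:**
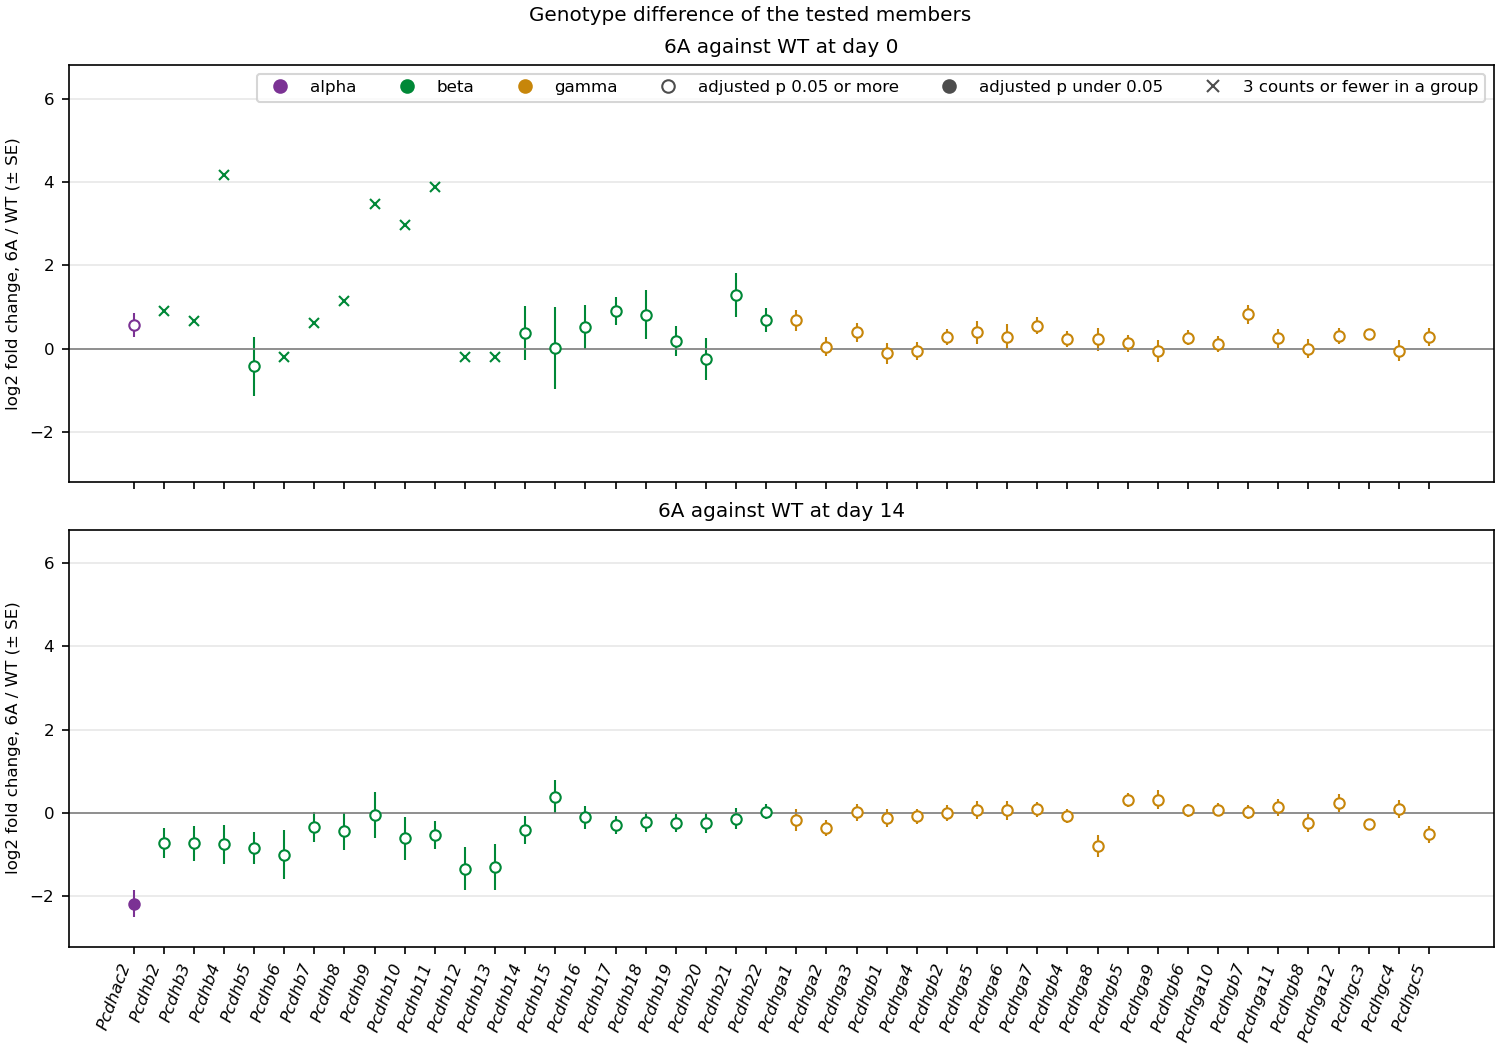
Log2 fold change of each tested member in 6A against WT at day 0 (top) and day 14 (bottom), in order along the chromosome, with ± SE; filled points have an adjusted p under 0.05, and crosses are fitted values, drawn without SE, of members with 3 counts or fewer in a group. Pcdhac2 at day 14 is the only filled point, and beta members at day 14 lie mostly below 0.

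Beside these values, markers of several cell types differed between the genotypes at day 14. Among all genes tested 5.33% were called higher in 6A at that day and 8.31% lower. Of 12 neuron markers 8 were called lower in 6A and none higher, with a median log2 fold change of -2.19 (at day 0, 1 was called lower and none higher). DESeq2 called 6 at day 14, without Rbfox3 and Snap25. Map2, which binds microtubules in dendrites, fell from 47.1 and 54.2 CPM in WT to 7.82 and 7.24 CPM in 6A, and Dcx from 21.2 and 19.3 CPM to 1.16 and 1.16 CPM. Of 10 neural progenitor markers 7 were lower, with a median of -3.52 and summed levels of 294.1 and 300.8 CPM in WT, against 167.6 and 167.0 CPM in 6A. Pou3f2 was at 0 in 1 of the 6A libraries and Hes5 in the other. Not all progenitor markers were lower. Nes overlapped, at 53.9 and 64.2 CPM in WT, against 77.9 and 58.0 CPM in 6A. Sox3 also overlapped, at 5.33 and 4.03 CPM in WT, against 6.76 and 3.96 CPM in 6A. Sox2 differed little, at 55.2 and 57.8 CPM in WT, against 44.4 and 50.2 CPM in 6A. Olig2, a factor of the oligodendrocyte lineage, was at 0 in both 6A libraries and was the only gene of the 4 tested on the list of glial markers that edgeR called; DESeq2 called none (Olig2 adjusted p = 0.11). Cardiac markers were lower in 6A (6 of 6, summed 1298 and 1488 CPM in WT, against 219.0 and 211.3 CPM in 6A), blood markers were higher (6 of 6, and 5 in DESeq2, summed 22.1 and 22.5 CPM and 126.6 and 127.3 CPM), and no endoderm marker of 6 was called by edgeR or DESeq2 (3 with an unadjusted p under 0.05). Of 6 pluripotency markers 3 were called higher in 6A by both tools (Nanog, Zfp42 and Esrrb), with a median log2 fold change of 0.56 and sums of 270 and 276 CPM in WT, against 397 and 386 CPM in 6A. Of 10 fibroblast and mesenchyme markers 2 were called higher (Dcn and Lox) and 2 lower (Twist1 and Postn, the latter not in DESeq2), and the sums overlapped, at 10956 and 9514 CPM in WT, against 14430 and 10229 CPM in 6A. The part of these cell types in the protocadherin values was not tested.

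**Figure D5:**
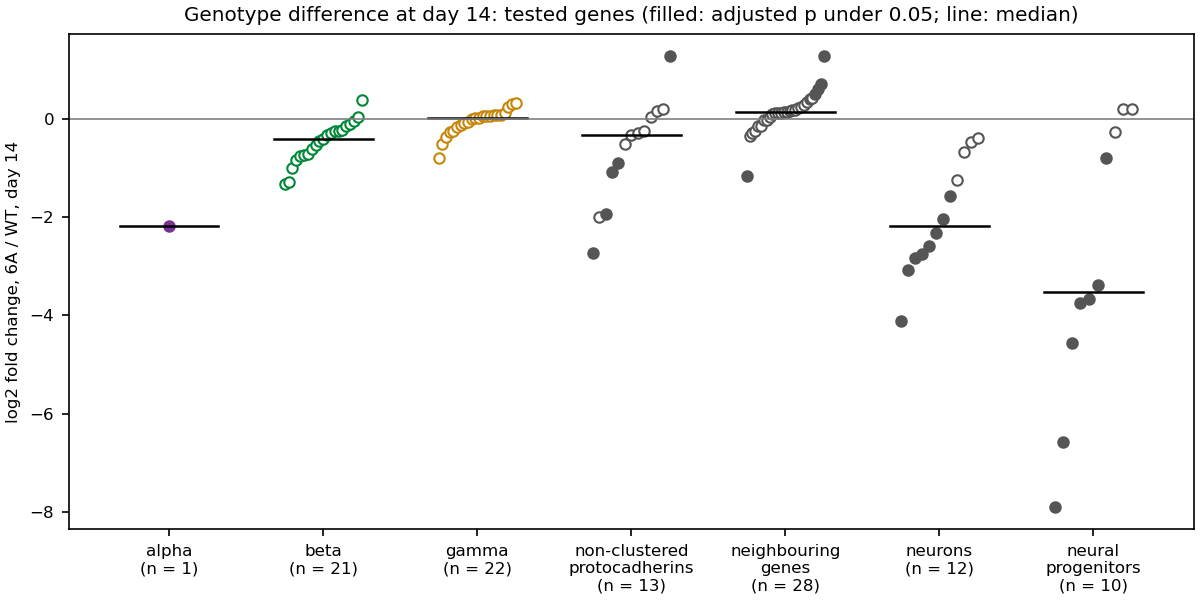
Fitted log2 fold change in 6A against WT at day 14 for the tested members of each cluster and for 4 other gene lists; each point is a gene, filled where the adjusted p is under 0.05, and the line is the median. The medians are -2.17 for the 1 alpha gene, -0.41 for beta, 0.02 for gamma, -2.19 for neuron markers and -3.52 for neural progenitor markers. Other cell type lists are not drawn, among them cardiac markers (median -2.81) and blood markers (median 4.40).

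At day 0 no clustered protocadherin was called in 6A against WT, where 1.58% of all genes tested were called, 1.06% higher and 0.518% lower. At an unadjusted p under 0.05 there were 8 members, 4 beta and 4 gamma, and DESeq2 called none. The share of all genes tested under that unadjusted cutoff is not given here, so the 8 are a count only. All 3 sums were higher in 6A in every library: alpha 2.59 and 3.60 CPM in WT, against 4.19 and 5.41 CPM in 6A (ratio 1.55), beta 9.38 and 7.56 CPM and 12.7 and 12.4 CPM (ratio 1.48), and gamma 174.7 and 175.4 CPM and 225.7 and 207.3 CPM (ratio 1.24). Both 6A libraries were above both WT libraries for Pcdhac2, 7 of 21 beta and 11 of 22 gamma members, where this held for 24.9% of all genes tested. The 7 beta members include Pcdhb3, Pcdhb4 and Pcdhb10, with 2, 0 and 0 counts over the WT day 0 libraries. In 6A day 0 these members had 4, 5 and 2 counts, so their order rests on few counts.

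Gamma members at day 0 had a median log2 fold change of 0.26, against 0.01 for all genes tested, and 18 of 22 were above 0. The smallest adjusted p was that of Pcdhgb7, at 3.58 and 3.04 CPM in WT, against 5.99 and 5.61 CPM in 6A (log2 fold change 0.83, SE 0.22, adjusted p = 0.085). Pcdhgc3 stood at 67.9 and 65.2 CPM in WT, against 90.9 and 80.6 CPM in 6A without overlap (log2 fold change 0.37, SE 0.11, adjusted p = 0.12). Of the beta members, 7 had 3 counts or fewer in both groups and allow no fold. The other 14 had a median of 0.50, with Pcdhb4 and Pcdhb11 at their bounds and 2 members with 1 to 3 counts in a group at their count ratios, and 12 of the 14 were above 0. Among beta members Pcdhb17 had the smallest adjusted p, at 0.987 and 1.55 CPM in WT, against 2.31 and 2.67 CPM in 6A (log2 fold change 0.90, SE 0.34, adjusted p = 0.21). Pcdhac2 had a log2 fold change of 0.57 (SE 0.29, adjusted p = 0.35).

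Some markers of feeder fibroblasts also had higher levels in 6A at day 0. The 4 Y-linked genes Kdm5d, Eif2s3y, Uty and Ddx3y, listed as a sign of male feeder cells, summed to 28.3 and 28.2 CPM in WT day 0 and 43.4 and 46.9 CPM in 6A day 0, a ratio of 1.60; none was called by edgeR or DESeq2, and 3 had an unadjusted p under 0.05. At day 14 they had 1 count in 1 of the 4 libraries and 0 in the others. Of 10 fibroblast markers 2 were called higher in 6A at day 0, Lox and Postn (4 in DESeq2, with Dcn and Lum), and the list summed to 1509 and 1384 CPM in WT, against 2129 and 1526 CPM in 6A. Fitted log2 fold changes of the 10 ran from 0.09 to 0.68. Among all genes tested edgeR called 1.06% higher in 6A at day 0. Col1a1 overlapped, at 252.2 and 226.2 CPM in WT, against 416.8 and 196.8 CPM in 6A, and so did Col3a1. The part of feeder RNA in the protocadherin values was not tested.

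The interaction asked whether the 6A difference at day 14 differed from that at day 0. Of the 44 tested members 2 were called, both lower, where 4.74% of all genes tested were called, 1.4% higher and 3.34% lower. For Pcdhac2 the 6A difference at day 14 was lower than that at day 0 by a log2 value of -2.74 (SE 0.44, adjusted p = 0.0031). For Pcdhgc3 the value was -0.62 (SE 0.16, adjusted p = 0.039), with 6A above WT at day 0 and below it at day 14 in every library. That second call was lost with RLE size factors, with no filter on low counts, in DESeq2 and without any 1 library other than WT day 0 replicate 1 (adjusted p 0.053 to 0.17). Beta members had a median interaction of -1.09 and gamma members of -0.26, against -0.01 for all genes, with 19 of 21 and 19 of 22 below 0. The beta median includes fitted values of members with 3 counts or fewer in a day 0 group. Pcdhb17 had the smallest adjusted p of the beta cluster (-1.19, SE 0.41, adjusted p = 0.12).

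Protocadherins outside the clusters are single genes of the same cadherin family, several of them expressed in early embryos. Of 13 on the list, 4 were called lower in 6A at day 14 (Pcdh8, Pcdh9, Pcdh10 and Pcdh15) and 1 higher (Pcdh12), with a median log2 fold change of -0.31; DESeq2 did not call Pcdh9 (adjusted p = 0.063) or Pcdh10 (0.059). Pcdh12, a vascular endothelial protocadherin, stood at 3.36 and 5.14 CPM in WT, against 11.1 and 10.04 CPM in 6A (log2 fold change 1.28, SE 0.26, adjusted p = 0.0057). Pcdh8, known from paraxial mesoderm and nervous system, stood at 9.04 and 6.41 CPM in WT, against 2.03 and 1.93 CPM in 6A (log2 fold change -1.94, SE 0.36, adjusted p = 0.0023). At day 0 Pcdh7 alone was called, higher in 6A. Among all genes tested 13.6% were called at day 14 (5.33% higher and 8.31% lower), 1.58% at day 0 and 4.74% in the interaction. In the interaction Pcdh9, Pcdh10 and Pcdh15 were called lower, Pcdh10 not in DESeq2 (adjusted p = 0.067). From day 0 to day 14 in WT 9 of the 13 were called higher and 3 lower, and in 6A 8 and 4. Of all genes tested, 38.4% were called higher and 36.8% lower in WT, and 35.4% and 36.6% in 6A.

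Genes that act on promoter choice and silencing at the clusters (27 on the list, among them Ctcf, the cohesin subunits, Smchd1 and the DNA methyltransferases) were mostly not called between genotypes. At day 0 edgeR and DESeq2 called none, where edgeR called 1.58% of all genes tested, and 1 had an unadjusted p under 0.05. At day 14 edgeR called 13.6% of all genes tested, 5.33% higher and 8.31% lower. In edgeR 2 were called higher in 6A at day 14, Dnmt3l and Dnmt3b, with a list median of 0.08; DESeq2 also called Stag1 (adjusted p = 0.043). Dnmt3b, a de novo DNA methyltransferase, stood at 45.9 and 40.7 CPM in WT, against 68.0 and 70.5 CPM in 6A (log2 fold change 0.68, SE 0.13, adjusted p = 0.0029). Dnmt3l, its catalytically inactive cofactor, stood at 22.0 and 22.5 CPM in WT, against 35.5 and 37.4 CPM in 6A (log2 fold change 0.71, SE 0.12, adjusted p = 0.0013). Both were also called in the interaction, where 4.74% of all genes tested were called. Both are highly expressed in pluripotent cells, whose markers were at a median of 0.56 in the same comparison; the part of such cells in these values was not tested. Smchd1 stood at 163.9 and 208.4 CPM in WT day 14 and 190.9 and 203.3 CPM in 6A day 14, with overlap. From day 0 to day 14, 15 of the 27 were called lower and 6 higher in WT, and 16 and 6 in 6A. Of all genes tested, 75.2% were called in WT and 71.9% in 6A. Dnmt3l had the largest fall in WT, by 3.70 on the log2 scale (SE 0.12, adjusted p = 2.6e-11). In 6A it fell by 2.82 (SE 0.12, adjusted p = 1.4e-10), and the lowest value on the list was -2.86, of another gene. Tet1 also fell in 6A, from 1286.7 and 1325.2 CPM at day 0 to 167.3 and 191.7 CPM at day 14.

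Intracellular partners of the proteins, 23 on the list, include the kinases Ptk2 and Ptk2b (FAK and PYK2), which their constant parts bind and inhibit, the WAVE complex, and the proteases that shed and cut them. At day 14 the kinase Ptk2b and the proteases Psen2 and Adam10 were called higher in 6A, and the kinase Fyn, the WAVE subunit Cyfip2 and the synaptic adhesion gene Nlgn1 lower. Among all genes tested 13.6% were called at day 14 (5.33% higher and 8.31% lower), 1.58% at day 0 and 4.74% in the interaction. Ptk2b stood at 10.2 and 11.2 CPM in WT, against 22.98 and 23.6 CPM in 6A (log2 fold change 1.12, SE 0.18, adjusted p = 0.00083). None of the 23 was called at day 0 by edgeR or DESeq2 (4 with an unadjusted p under 0.05), Ptk2b and Psen2 were called higher in the interaction, and from day 0 to day 14 Cdh2 (N-cadherin) rose most clearly in both genotypes.

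A list of 28 genes taken as neighbours of the clusters on chromosome 18 held calls in both directions at day 14. In 6A against WT 5 were called higher (Cd14, Taf7, Gnpda1, Rnf14 and Pcdh12, which is on both lists) and 1 lower (Cystm1). The median log2 fold change was 0.15, and DESeq2 did not call Cd14 (adjusted p = 0.062). Among all genes tested 13.6% were called at day 14 (5.33% higher and 8.31% lower), 1.58% at day 0 and 4.74% in the interaction. Taf7, a single-exon gene that lies in the stretch between the beta and gamma clusters, stood at 57.7 and 51.6 CPM in WT, against 79.1 and 77.0 CPM in 6A (log2 fold change 0.52, SE 0.11, adjusted p = 0.0081). At day 0 none of the 28 was called by edgeR or DESeq2 (6 with an unadjusted p under 0.05), with a median of -0.08, and in the interaction 1 was, Arap3, higher (2 in DESeq2, with Gnpda1). From day 0 to day 14 in WT 9 rose and 13 fell, where 38.4% of all genes tested were called higher and 36.8% lower.

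The tables also hold reads assigned to the CAST or the 129 genome. Over all libraries the 129 genome took 193 of 195 assigned reads of the alpha cluster (99.0%, exact 95% interval 96.3% to 99.9%), 2363 of 2413 of the beta cluster (97.9%, interval 97.3% to 98.5%) and 9072 of 9209 of the gamma cluster (98.5%, interval 98.2% to 98.7%). These intervals cover counting error only. Other genes of chromosome 18 were at 96.3% and the 28 listed neighbours at 97.5%. Chromosome 18 was 1 of 11 autosomes of 19 with a 129 share of 90.3% to 97.3%, and the other 8 were at 53.5% to 83.5%. The 129 share of the beta cluster was 94.7% in WT day 0, 93.0% in 6A day 0, 98.6% in WT day 14 and 98.3% in 6A day 14; other genes of chromosome 18 were at 95.2%, 94.7%, 98.0% and 97.8%. The gamma share was 98.7%, 97.3%, 98.9% and 98.8% in the same order.

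Of 43 members with at least 20 assigned reads, 37 had a 129 share of at least 95%. Pcdhgb2 was lowest, with 41 of 208 reads assigned to CAST and a 129 share of 80.3% (exact 95% interval 74.2% to 85.5%). Pcdhb9 (84.6% of 26 reads), Pcdhb5 (86.4% of 81), Pcdhgb4 (90% of 140), Pcdhb7 (91.7% of 36) and Pcdhb8 (93.8% of 32) followed. Members of a cluster are close copies of one another, and how reads that fit more than 1 member or genome were assigned was not given in the sources used here.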

How the data were processed

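The authors deposited 1 table per library with raw read counts per gene (counts of all reads, and of reads assigned to the CAST and 129 genomes). Per the submitters' processing notes, cutadapt 1.4.2, STAR 2.7.10a and the mm10 build were used; per the labels' protocols, ribosomal RNA was depleted and libraries were directional. Gene annotation, counting program, strand setting and rules for shared reads were not given in the sources used here; close paralogs and overlapping or antisense transcripts may share reads. Counts of all reads were fitted with edgeR 4.0.16 (R 4.3.3; filterByExpr with a minimum count of 10, TMM, robust quasi-likelihood fit of 4 groups over all 8 libraries, 4 residual degrees of freedom, Benjamini-Hochberg adjustment over 15458 genes); the script was tested on simulated data. Alternatives were RLE size factors, no filter, DESeq2 1.42.0, fits of only the 2 groups compared, a replicate block and leaving out each library. Members and gene lists were chosen with earlier results of these data known. Values per library are given for the 4 called members of smallest adjusted p per cluster and comparison, the C-type genes, the most and least counted members and called members that go against their cluster; other named members were chosen after their values were seen. Each replicate pair differed by more than sampling noise (chi-square per gene 7.82 to 16.3). Limits for 0 counts use 3 counts, and intervals are exact binomial. Counts of genes with an unadjusted p under 0.05 are given without the share of all genes tested under that cutoff.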

Additional observations from a re-analysis of the deposited data

Results flagged for a closer look

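Pcdhac2 and Pcdhgc3 passed the test of the interaction, which compares the 6A effect of the 2 days. For Pcdhac2 the log2 difference of the 6A effect, day 14 minus day 0, was -2.74: both 6A libraries were above both WT libraries at day 0 and below them at day 14. For Pcdhgc3 the value was -0.62 (adjusted p = 0.039 in edgeR), with the same order of libraries; this call was lost with RLE size factors, with no filter, in DESeq2 and on leaving out any 1 library other than WT day 0 replicate 1.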

How the results depend on the processing

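Of 36 tested values of named members, 27 were called and 25 of these kept their call under every alternative; none changed sign. The 2 exceptions were Pcdhga12 in WT (lost without WT day 14 replicate 1, log2 -0.44, and in DESeq2, -0.69) and the Pcdhgc3 interaction (log2 -0.53 to -0.71 where lost). Members called in 6A against WT at day 14 were 1, and 2 when only those groups were fitted, the second being Pcdhga8 (log2 -0.79). In the interaction the count was 2, and 1 with RLE size factors, with no filter or in DESeq2; leaving out each library gave 1 to 2, the 2 without WT day 0 replicate 2 being Pcdhac2 and Pcdhga1. The interaction has no fit of only 2 groups. Where 1 library was left, it was assumed to vary like the other groups. The labels tie replicate numbers to no shared batch or day. Deviations of same-numbered libraries correlated at 0.0118 to 0.385, above 0.1 in 5 of 6 pairs of groups and positive in all 6, a hint from the data of shared structure; since 1 pair was below 0.1 the numbers were not taken as pairing. With them as a replicate block the counts were 0, 1, 42, 40 and 2, with no named call changed. Log2 ratios of cluster sums without the largest member were 1.25 for alpha at day 0, -1.45 for alpha, -0.32 for beta and 0.0076 for gamma (sign changed) at day 14, 4.16 for alpha and 1.24 for gamma over WT differentiation, and 1.47 for alpha (sign changed) and 2.80 for beta over 6A differentiation. With total counts they were -0.31 for beta at day 14, 1.52 for gamma in WT, and 2.84 for beta and 1.06 for gamma in 6A; with RLE size factors -0.24 for beta at day 14 and 2.78 in 6A; with only members that passed the filter -1.49 for alpha in 6A. The causes were not tested, apart from the largest members, whose removal is the change. The 129 share without the member with most assigned reads was 98.42% for gamma in WT day 0, 94.74% for alpha, 98.63% for beta and 98.78% for gamma in WT day 14, and 98.63% for gamma in 6A day 14. Depth limits the alpha and beta clusters at day 0: 13 of 14 alpha members had 3 counts or fewer in each genotype, and of 22 beta members 12 did in WT and 8 in 6A.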
